A study of Mus musculus with 20 samples.

Results

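Expression of 10 genes of bile acid transport and sensing was examined in the colon of 20 mice. The genes were chosen by name out of 32991 genes with a summed value, with earlier results of these data known. They are the transporters Slc10a2, Slc51a, Slc51b and Abcc3, the carrier Fabp6, the receptors Nr1h4, Vdr and Gpbar1, and the FXR targets Nr0b2 and Fgf15. For each gene, the FPKM of its Ensembl transcripts were summed in each mouse. FPKM are fragment counts scaled to transcript length and library size, so levels of different genes can be set side by side. The study put 5 male C57BL/6 mice in each of 4 groups, with 1 RNA library per mouse, and asked how Pien Tze Huang (PZH), a Chinese herbal and animal medicine, acts in colitis-associated cancer. Control mice received water for 91 days, and PZH mice received 250 mg/kg/d PZH by gavage for the same time. AOM/DSS mice (the labels' Model group) had the carcinogen azoxymethane at 12.5 mg/kg, and after 7 days 4 cycles of 2% dextran sulfate sodium in the drinking water for 5 days each. AOM/DSS + PZH mice (the labels' Model + PZH group) had the same injection and cycles together with PZH from the first day. The samples were colon tissue, and neither labels nor methods say whether tumor or flat mucosa was taken.

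Bile acids made in the liver are largely taken back in the ileum and return to the liver. In the enterocyte, the apical sodium-dependent transporter ASBT (Slc10a2) takes them up, the ileal bile acid-binding protein (Fabp6) carries them, and the dimer of OSTα and OSTβ (Slc51a and Slc51b) releases them on the blood side, where MRP3 (Abcc3) is another exporter. The nuclear receptor FXR (Nr1h4) senses bile acids and raises SHP (Nr0b2), the hormone FGF15 (Fgf15) and the carrier Fabp6, the vitamin D receptor (Vdr) binds the secondary bile acid lithocholic acid, and TGR5 (Gpbar1) is the bile acid receptor of the cell surface. Most of this system is known to be strongest in the ileum, and the colon meets mainly the secondary bile acids made by bacteria. PZH itself contains ox gallstone and snake gall among its ingredients.

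The 2 sequences shown here belong to the member with the largest difference between groups and to the receptor whose transcripts could be told apart. The 250 bases before the RefSeq start of Fabp6 (chr11:43601563-43601812, minus strand, GRCm38.p6) are printed because this gene is a known FXR target. Capitals mark 2 stretches that match, with 2 mismatches each, an inverted repeat of AGGTCA with 1 base between the copies, the type of element FXR binds with RXR. Both strands were searched.

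Fabp6 promoter: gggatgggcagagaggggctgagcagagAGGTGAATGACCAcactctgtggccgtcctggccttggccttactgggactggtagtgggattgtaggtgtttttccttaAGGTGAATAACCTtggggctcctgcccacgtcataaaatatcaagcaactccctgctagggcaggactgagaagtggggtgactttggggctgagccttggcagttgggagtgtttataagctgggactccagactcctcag

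The stretches begin 222 and 142 bases before the start. A match with at most 2 mismatches was found in 374 of 32851 windows of 300 bases around RefSeq starts (1.14%). RefSeq windows were at hand for 8 of the members, and none of the other 7 held such a match. A direct repeat of AGGTCA with 3 bases between the copies, of the type bound by the vitamin D receptor, had no match with at most 2 mismatches in any of the 8 windows, against 3.06% of all windows. These are matches of letters, and binding was not measured.

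Nr1h4 has 3 annotated transcripts. They differ in where they start and in 12 coding bases at the end of an exon (chr10:89483372-89483383, minus strand, GRCm38). The sequence across that exon end is printed because the 2 forms of FXR differ there beside the DNA-binding domain, and capitals mark the 12 bases.

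Nr1h4 with the 12 bases: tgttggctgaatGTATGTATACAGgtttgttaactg

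Nr1h4 without them: tgttggctgaatgtttgttaactg

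ENSMUST00000058126 lacks the 12 bases and has 1452 coding bases. ENSMUST00000105296 starts at the same place within a few bases, holds them and has 1464 coding bases. ENSMUST00000105297 starts upstream at position 89533585 of chromosome 10, holds them and has 1422 coding bases.

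The libraries held 15.3 to 19.4 M (mega) fragments each, as read from the step size of the values, and their share of FPKM in assembled transcripts was 12.1 to 14.8%. These 22252 assembled transcripts carry no gene name and entered no gene, so fragments assigned to them are missing from the sums. Values of some genes swung widely. Epcam, a gene of every gut epithelial cell, was listed at 0 in 13 of 20 mice and at up to 865 FPKM in the others. The keratin Krt8 ran from 0.0706 to 3071 FPKM. Whether their missing fragments lie in assembled transcripts was not tested. An exact 0 is therefore given below only as a listed value. The tissue is labelled colon, but the labels' extraction text speaks of abdominal aorta, so marker genes were checked. Cdh1 (E-cadherin) was at 215 to 311 FPKM in all 20 mice and the colonocyte transporter Slc26a3 at 38.4 to 536. Genes on a list of 17 small intestinal genes were mixed. The enzyme Sis was at 0 to 0.169 FPKM, Lct at 0 to 0.185 and Apoa4 at 0 to 0.135. By contrast, Slc5a1 was at 25.2 to 56.9 FPKM, Fabp2 at 3.32 to 88.0 and Rbp2 at 6.75 to 49.7. Of the 17 genes, 7 passed the filter described below for AOM/DSS against Control. Whether the samples held any small intestine was not tested. Genes of squamous epithelium, which lines the anal end, summed to 349 and 297 FPKM in Control mice 17 and 50 and to at most 1.65 FPKM in the other Control mice and in PZH mice. They summed to 13.1 to 37.6 FPKM in AOM/DSS mice, 67.5 FPKM in AOM/DSS + PZH mouse 35 and 2.59 to 9.47 FPKM in the rest of that group. Results were therefore also computed without Control mice 17 and 50, a choice made after the data were seen, in which Fabp6 (-2.66, limma, adjusted P = 0.0400) and Vdr (-1.26, adjusted P = 0.0342) were still called lower in AOM/DSS than in Control. A gene was tested with limma on log2(FPKM + 1) where at least 5 of the 10 mice compared had 0.5 FPKM or more, and called at a Benjamini-Hochberg adjusted P under 0.05 over all genes tested. Fold changes below are on that log2(FPKM + 1) scale, which understates changes of low genes. In whole tissue, fewer cells of a type and less RNA per cell cannot be told apart.

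Vdr was the highest of the 10 genes, with a median of 83.1 FPKM over 20 mice, followed by Abcc3 with 47.5, Slc51b with 16.0, Nr1h4 with 14.8, Fabp6 with 4.44 and Slc10a2 with 1.04. The ranges of Vdr and Abcc3 overlapped (22.3 to 107 and 18.5 to 66.1 FPKM), as did those of Slc51b and Nr1h4. The other 4 genes had medians below the 0.5 FPKM minimum. In each of the comparisons of AOM/DSS with Control, PZH with Control and AOM/DSS + PZH with AOM/DSS, 6 of the 10 members passed the filter, and Slc51a, Gpbar1, Nr0b2 and Fgf15 did not.

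**Figure D1:**
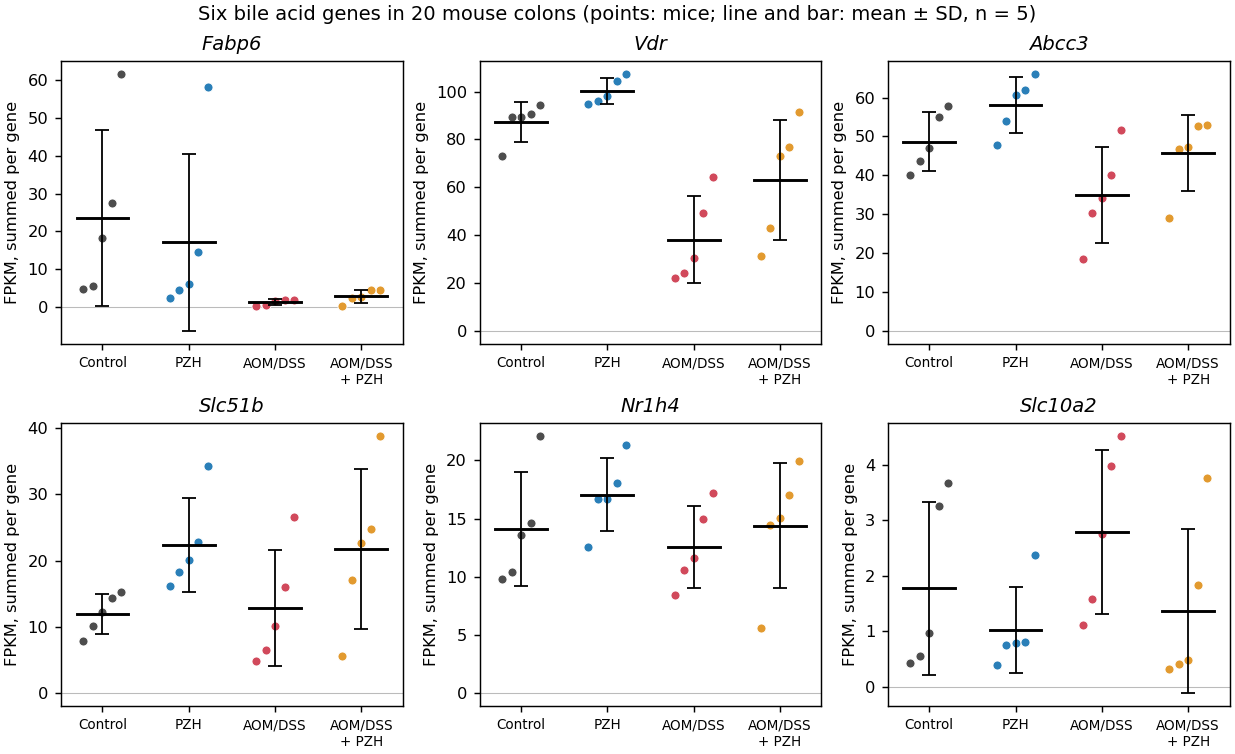
Summed FPKM of 6 members in each mouse (points), by group, with the mean and SD of 5 mice (line and bar). Fabp6 and Vdr were lower in all 5 AOM/DSS mice than in any Control mouse, while the other 4 genes overlapped between these groups.

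With AOM/DSS alone, 2 of the 6 members tested were called against Control, Fabp6 and Vdr, both lower. In this comparison 1143 of 15812 genes (7.23%) were called lower and 23.6% in either direction. The members' median log2 fold change was -0.33, and that of all genes 0.09.

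Fabp6 (ENSMUSG00000020405.4, chr11:43596049-43601540, minus strand) encodes the carrier that binds bile acids inside the enterocyte. In Control mice it was at 27.49, 61.6, 5.64, 4.84 and 18.2 FPKM in mice 17, 37, 41, 48 and 50. In AOM/DSS mice it was at 0.43, 1.70, 1.85, 1.98 and 0.33 FPKM in mice 23, 30, 33, 44 and 52. Control mice thus differed among themselves more than 10 times, yet the lowest Control mouse was above the highest AOM/DSS mouse, and 5.43% of all genes were separated in this direction. The log2 fold change was -2.98 (standard error 0.61, 95% interval -4.32 to -1.64), a fall to 0.127 of the Control level (limma, adjusted P = 0.00563). The exact two-sided permutation test gave an unadjusted P of 0.00794, among 50 such tests of members. This is the smallest it can give with 5 mice against 5, and any 2 groups without overlap give it.

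Fabp6 in PZH mice was at 58.1, 2.38, 5.97, 14.6 and 4.43 FPKM (mice 8, 14, 27, 46 and 53), a range that overlapped that of Control mice. PZH mice 14 and 53 lay below every Control mouse, and Control mouse 37 above every PZH mouse. In AOM/DSS + PZH mice it was at 2.29, 4.52, 0.38, 2.66 and 4.45 FPKM (mice 2, 13, 15, 35 and 36). These 5 mice lay below all Control mice, as they did for 2.59% of all genes, but overlapped both AOM/DSS and PZH mice. Against AOM/DSS the log2 difference was 0.71 (95% interval -0.17 to 1.58, limma, adjusted P = 0.510), and against Control it was -2.27 (adjusted P = 0.0841), where no member was called and 2.42% of 15616 genes were.

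The colon genes that moved most like Fabp6 over the 20 mice, among 16935 compared, were Sycn, Crip1 and Tppp. Their log2 values, centred on the Control mean, differed from those of Fabp6 by a root mean square of 0.99, 1.02 and 1.03. Sycn averaged 1451 FPKM in Control and 821 FPKM in PZH mice. With AOM/DSS the mean was 186 FPKM, and with AOM/DSS + PZH 239 FPKM.

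Vdr (ENSMUSG00000022479.15, chr15:97854425-97910630, minus strand) was the other called member. Control mice 17, 37, 41, 48 and 50 had 89.5, 73.0, 90.7, 94.4 and 89.4 FPKM, and AOM/DSS mice 23, 30, 33, 44 and 52 had 24.3, 64.3, 49.3, 22.3 and 30.3 FPKM. The groups did not overlap, as for 5.43% of all genes in that direction, and AOM/DSS mice were spread more widely (38.1 ± 18.1 FPKM, mean ± SD, n = 5) than Control mice (87.4 ± 8.30, n = 5). The log2 fold change was -1.29 (standard error 0.26, 95% interval -1.87 to -0.71), a fall to 0.409 of the Control level (limma, adjusted P = 0.00568). Transcript ENSMUST00000023119 carried most of it, at 83.3 ± 7.09 FPKM in Control mice and 36.4 ± 17.2 FPKM with AOM/DSS (SD over 5 mice).

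Vdr was at 104, 107, 96.1, 94.998 and 98.2 FPKM in PZH mice 8, 14, 27, 46 and 53. In AOM/DSS + PZH mice 2, 13, 15, 35 and 36 it was at 76.8, 91.3, 42.9, 31.3 and 73.2 FPKM. The first 5 were all above every Control mouse, and the second 5 all below every PZH mouse (2.37% of all genes), with 3 of them above every AOM/DSS mouse. The log2 difference of PZH from Control was 0.20 (95% interval 0.01 to 0.39, limma, adjusted P = 0.555), of AOM/DSS + PZH from AOM/DSS 0.73 (-0.06 to 1.52, adjusted P = 0.455) and of AOM/DSS + PZH from PZH -0.76 (-1.33 to -0.20, adjusted P = 0.129). None of these was called.

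Slc9a2, Dhrs11 and Slc26a2 were the genes most like Vdr over the 20 mice by the same measure, with root mean square differences of 0.21, 0.24 and 0.25. Slc9a2 averaged 40.6 FPKM in Control and 42.2 FPKM in PZH mice. With AOM/DSS the mean was 19.7 FPKM, and with AOM/DSS + PZH 30.3 FPKM. Slc26a2 is also on the list of mature colonocyte genes.

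Genes of mature colonocytes were lower in the same mice. Of 14 such genes tested, 8 fell and 1 (Scnn1b) rose in AOM/DSS against Control, with a median log2 fold change of -0.81. Their summed FPKM were 3663 to 4717 in Control and 2922 to 3617 in PZH mice, which did not overlap, with 0 of the 14 called. All PZH sums were thus below all Control sums, whereas Vdr was higher in all PZH mice than in any Control mouse. With AOM/DSS the sums were 750 to 1811, and with AOM/DSS + PZH 909 to 2959. AOM/DSS mouse 44 had the lowest sum of its group together with the lowest Vdr, Abcc3 and Slc51b, and AOM/DSS + PZH mouse 35 the lowest sum of its group together with the lowest Vdr, Abcc3, Slc51b and Nr1h4. Fabp6 did not follow that order, since mouse 44 had the highest Fabp6 of its group and mouse 35 the median. Fabp6 in AOM/DSS mice corresponds to only about 3 to 17 fragments, and mice 30, 33 and 44 lay close together (1.70, 1.85 and 1.98 FPKM). Ranks of Fabp6 within that group are therefore uncertain. Of 12 general epithelial genes, 11 were tested, 3 fell and none rose. Without Krt8 and Epcam, their summed FPKM were 4693 to 6596 in Control and 3647 to 4578 in AOM/DSS mice, which did not overlap, while with both genes the sums overlapped (4712 to 8682 and 3893 to 7171). Of the myeloid genes tested 7 of 12 rose and 1 fell, of the smooth muscle genes 6 of 6 fell, and of the Paneth cell genes 7 of 7 rose, 4 of which were under 0.5 FPKM in every Control mouse and entered the test through the AOM/DSS mice. Of 10 tested genes that mark position along the gut, 2 were called lower and 0 higher, against 7.23% of all genes called lower. These were Cdx1 (-0.62, limma, adjusted P = 0.0131) and Hoxb13 (-0.60, adjusted P = 0.00157). Summed FPKM of this list were 455 to 563 in Control and 329 to 408 in AOM/DSS mice, which did not overlap. With AOM/DSS + PZH they were 336 to 502. The part of these cell types, and of the stretch of colon sampled, in the fall of Fabp6 and Vdr was not tested.

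Abcc3 (MRP3, chr11:94343295-94392997, minus strand) exports bile acids and their conjugates to the blood side. Control mice had 47.0, 40.0, 54.9, 57.9 and 43.6 FPKM and AOM/DSS mice 30.3, 40.2, 51.6, 18.5 and 34.1 FPKM, in the mouse order given above. AOM/DSS mice 23, 44 and 52 lay below all Control mice, and mice 30 and 33 among them. The log2 difference was -0.53 (95% interval -1.04 to -0.02, limma, adjusted P = 0.128), and without AOM/DSS mouse 33 it was -0.68 (adjusted P = 0.0490). PZH mice had 47.9, 66.1, 60.6, 53.9 and 62.0 FPKM and AOM/DSS + PZH mice 53.02, 46.7, 52.7, 28.9 and 47.2 FPKM. With all mice included, Abcc3 was called in no comparison of 2 groups. In the comparisons other than AOM/DSS with Control, its adjusted P values were 0.245 to 0.771 (limma).

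Nr1h4 (FXR, chr10:89454234-89533585, minus strand) was at 22.1, 14.6, 10.4, 13.5 and 9.80 FPKM in Control and at 14.99, 10.5, 17.2, 11.6 and 8.38 FPKM in AOM/DSS mice. PZH mice had 18.1, 16.7, 16.7, 21.4 and 12.5 FPKM and AOM/DSS + PZH mice 14.5, 15.02, 19.9, 5.56 and 17.03 FPKM. All 4 groups overlapped. The log2 difference of AOM/DSS from Control was -0.14 (95% interval -0.66 to 0.38, limma, adjusted P = 0.716), an interval that reaches from a lower to a higher level. For PZH against Control it was 0.30 (-0.17 to 0.76, adjusted P = 0.686), and for AOM/DSS + PZH against AOM/DSS 0.13 (-0.55 to 0.80, adjusted P = 0.903).

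Both main forms of FXR were present in each mouse. The upstream transcript ENSMUST00000105297, with the 12 bases, made up 46.7 ± 10.6% of Nr1h4 FPKM in Control and 42.9 ± 6.10% in PZH mice, 38.9 ± 19.95% with AOM/DSS and 52.1 ± 17.2% with AOM/DSS + PZH (SD over 5 mice each). Transcript ENSMUST00000058126, without them, made up 52.1 ± 10.3% in Control and 54.6 ± 4.67% in PZH mice, 50.3 ± 11.1% with AOM/DSS and 45.6 ± 15.9% with AOM/DSS + PZH. ENSMUST00000105296, the inner start with the 12 bases, stayed under 0.76 FPKM in 19 mice and reached 5.52 FPKM in AOM/DSS mouse 44, where the upstream transcript was at 1.02 FPKM (8.84%). The lowest P of 15 exact two-sided permutation tests of these shares between groups was 0.286. StringTie divides fragments between transcripts that share exons, so these shares are estimates.

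**Figure D2:**
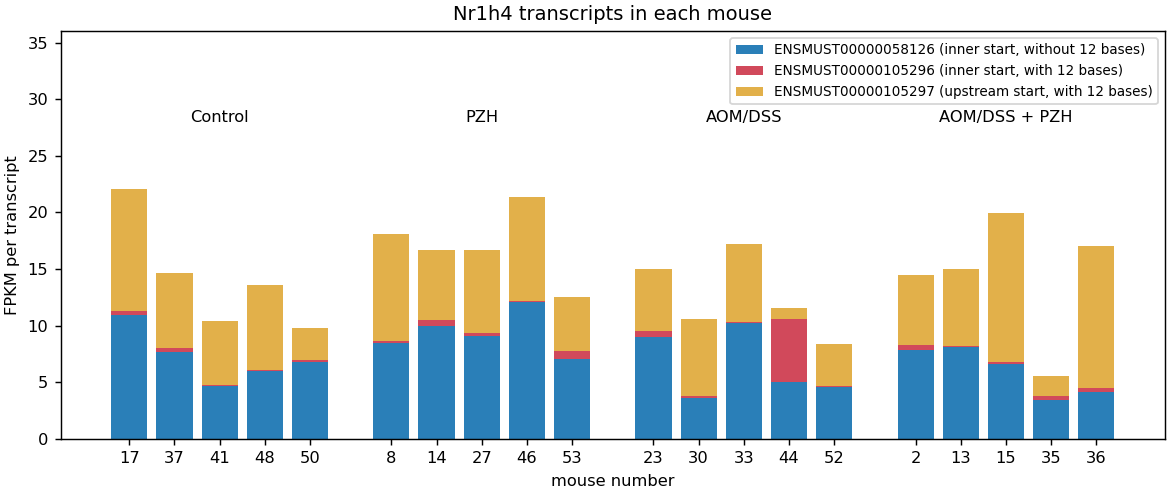
FPKM of the 3 Nr1h4 transcripts stacked for each mouse, by group. The transcripts with and without the 12 bases are both present in all 20 mice, and AOM/DSS mouse 44 is the only one with over 5 FPKM of the inner-start transcript that holds them.

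Slc51b (OSTβ, ENSMUSG00000053862.6, chr9:65412714-65422955, minus strand) was the member that differed most between PZH and Control mice. Control mice had 10.1, 15.2, 12.2, 14.4 and 7.92 FPKM and PZH mice 22.9, 20.04, 16.1, 34.3 and 18.3 FPKM. Each PZH mouse was above every Control mouse, and the lowest Control mice, 17 and 50, were those with squamous genes. The log2 difference was 0.84 (standard error 0.22, 95% interval 0.35 to 1.32), or 1.78-fold, with an unadjusted P of 0.00293 and an adjusted P of 0.428 (limma), so it was not called. Without Control mice 17 and 50 the difference was 0.60 (adjusted P = 0.679). Smooth muscle genes summed to 773 to 1841 FPKM in PZH and 1696 to 3745 FPKM in Control mice, with a median log2 difference of -0.71 and 0 of 6 called, and their part in the differences of Slc51b and Vdr was not tested. No member was called between PZH and Control, against 1 of 15506 genes (0.00645%), while 1370 genes (8.84%) had an unadjusted P under 0.05. Groups that do not overlap, with PZH higher, were found for 2 of the 6 members tested, Slc51b and Vdr, and for 0.909% of all genes. The exact two-sided permutation test gave 0.00794 for each, unadjusted, among 50 such tests of members.

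With AOM/DSS, Slc51b was at 16.0, 10.1, 26.6, 4.88 and 6.52 FPKM, and with AOM/DSS + PZH at 24.7, 17.03, 38.8, 5.63 and 22.7 FPKM. Both ranges were wide and overlapped each other and the Control range. AOM/DSS + PZH against AOM/DSS gave a log2 difference of 0.73 (95% interval -0.41 to 1.87, limma, adjusted P = 0.592). No member was called in that comparison, against 1 of 15888 genes (0.00629%), while 1862 genes (11.7%) had an unadjusted P under 0.05, and the groups overlapped for each of the 6 members, against 1.08% of genes without overlap. AOM/DSS against Control gave -0.10 (-0.94 to 0.74, adjusted P = 0.881).

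Slc51a (OSTα), the partner without which OSTβ forms no transporter, was listed at up to 0.130 FPKM. Control mice had 0.115, 0.103, 0, 0.0973 and 0.0642 FPKM, PZH mice 0.0760, 0.0770, 0, 0.0366 and 0, AOM/DSS mice 0.0368, 0.0370, 0.130, 0 and 0.0709, and AOM/DSS + PZH mice 0, 0, 0.0381, 0 and 0.0378 FPKM. In each of the 20 mice Slc51b was thus at 4.88 to 38.8 FPKM while Slc51a was at 0 to 0.130 FPKM. Only 1 of the 3 annotated Slc51a transcripts was in the files, and the assembled transcripts were not assigned, so whether Slc51a fragments are missing was not tested.

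Slc10a2 (ASBT, chr8:5083219-5105351, minus strand), the apical uptake transporter, was low and uneven. Control mice had 3.26, 0.55, 0.97, 0.42 and 3.67 FPKM and PZH mice 0.76, 0.40, 0.79, 2.37 and 0.80. AOM/DSS mice had 2.76, 1.58, 1.12, 3.98 and 4.52 FPKM and AOM/DSS + PZH mice 0.42, 0.49, 0.32, 3.77 and 1.84. No AOM/DSS mouse was under 1 FPKM, but 3 of the 5 Control mice and 3 of the 5 AOM/DSS + PZH mice were. The highest mice of these 2 groups, Control 17 and 50 and AOM/DSS + PZH 35, were those with the highest sums of squamous genes, whose part in Slc10a2 was not tested. The log2 difference was 0.54 (95% interval -0.34 to 1.42) for AOM/DSS against Control (limma, adjusted P = 0.368) and -0.78 (-1.66 to 0.10) for AOM/DSS + PZH against AOM/DSS (adjusted P = 0.468). Without Control mice 17 and 50, Slc10a2 was called higher in AOM/DSS than in Control (1.12, adjusted P = 0.0451), and its difference between PZH and Control turned from -0.34 to 0.24 (adjusted P = 0.862).

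Gpbar1 (TGR5) was at 0.0568, 0.458, 0.466, 0.391 and 0.246 FPKM in Control and at 0.240, 0.544, 0.572, 0.491 and 0.819 FPKM in PZH mice. It was at 0.863, 0.138, 0.375, 0.221 and 0.396 FPKM in AOM/DSS and at 0.240, 0.667, 1.03, 0.106 and 0.281 FPKM in AOM/DSS + PZH mice. All groups overlapped, with exact two-sided permutation P values of 0.127 to 0.810. It passed the filter only between AOM/DSS + PZH and PZH, where it differed by -0.09 (limma, adjusted P = 0.802).

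Of the FXR targets named above, Nr0b2 and Fgf15 were at the floor of the measurement, while Fabp6 was at 0.33 to 61.6 FPKM. Nr0b2 (SHP) was listed at 0 in 19 of 20 mice and at 0.108 FPKM in Control mouse 17. Fgf15 was listed at 0 in 15 of 20 mice, and at 0.0351 FPKM in PZH mouse 27, 0.0325, 0.131 and 0.0627 FPKM in AOM/DSS mice 23, 44 and 52, and 0.1002 FPKM in AOM/DSS + PZH mouse 36. Such values correspond to about 1 to 4 fragments. Only 2 of the 5 annotated Fgf15 transcripts had values, so whether Fgf15 fragments are missing was not tested. The value of PZH mouse 27 came from ENSMUST00000207040, a transcript without coding bases. No fold is given for Nr0b2 and Fgf15.

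**Figure D3:**
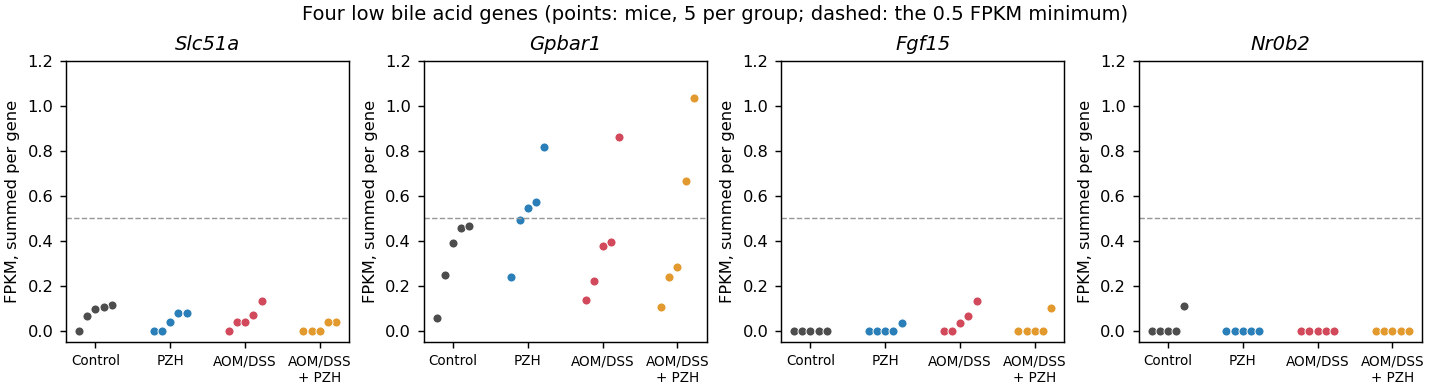
FPKM of the 4 members with a median below the 0.5 FPKM minimum (dashed line) in each mouse, by group. Gpbar1 reaches 1.03 FPKM in 1 mouse, and Slc51a, Fgf15 and Nr0b2 stay at or under 0.131 FPKM in all 20.

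The 2 arms of the study could be read together. In the arm with PZH, none of the 7 members tested was called between AOM/DSS + PZH and PZH, against 2.42% of 15636 genes. Averaged over the arms with and without PZH in 1 model of all 20 mice, a contrast added after the data were seen, 3 of 7 members were called lower with AOM/DSS, against 9.96% of 16936 genes called lower. Fabp6 changed by -2.28 (adjusted P = 0.00182), Vdr by -1.03 (adjusted P = 5.97e-04) and Abcc3 by -0.44 (adjusted P = 0.0292) on the log2 scale (limma). The call of Abcc3 was lost without Control mouse 48 (-0.41, adjusted P = 0.0539), PZH mouse 14 (-0.42, adjusted P = 0.0521) or AOM/DSS + PZH mouse 35 (-0.37, adjusted P = 0.0557), and without the filter on low values (adjusted P = 0.0533).

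The average effect of PZH over both arms gave 0 calls among 16936 genes, while 13.6% had an unadjusted P under 0.05. Slc51b stood at 0.78 (95% interval 0.16 to 1.40, limma, adjusted P = 0.257), Vdr at 0.46 (adjusted P = 0.303) and Abcc3 at 0.34 (adjusted P = 0.328). Without AOM/DSS + PZH mouse 35, Slc51b was called (0.98, adjusted P = 0.0297), and so were 863 genes in all. The test of whether the effect of AOM/DSS differed with PZH called none of the 7 members and 2 of 16936 genes (0.0118%). For Fabp6 that difference was 1.40 (95% interval -0.67 to 3.48, adjusted P = 0.646) and for Vdr 0.53 (-0.28 to 1.34, adjusted P = 0.662). A share of the effect as large as these intervals allow could not be told from 0. The 4 groups enter several of these comparisons at once, so the comparisons are not independent.

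**Figure D4:**
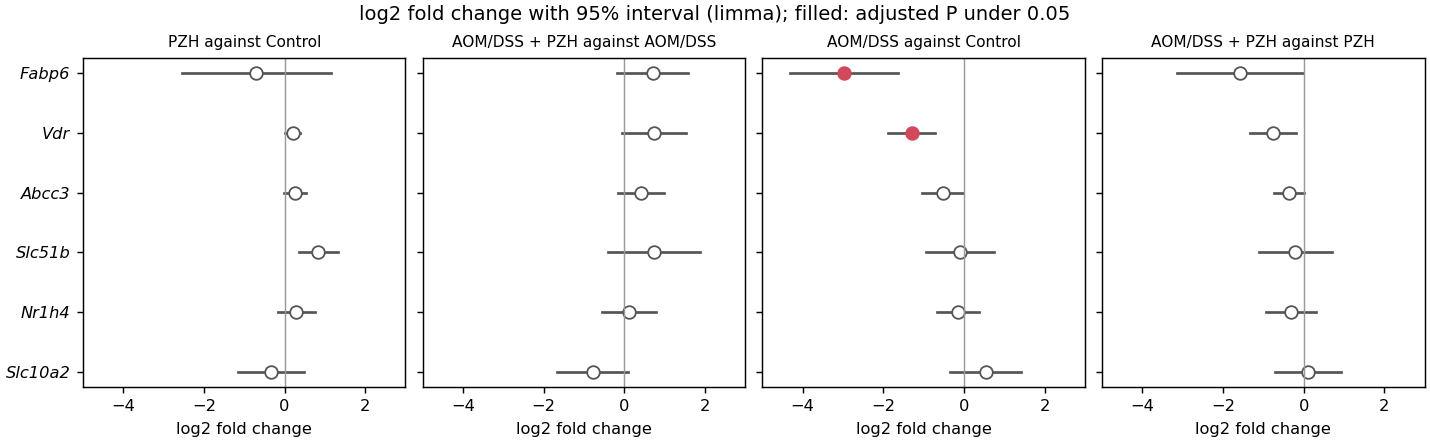
log2 fold change on the log2(FPKM + 1) scale and 95% interval of the 6 members tested in 4 comparisons, with filled points for an adjusted P under 0.05 (limma). Fabp6 (-2.98) and Vdr (-1.29) in AOM/DSS against Control are the 2 filled points, and the intervals of both panels that compare PZH with water include 0 for most genes, Slc51b (0.84) and Vdr (0.20) in PZH against Control being the exceptions.

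Genes around the members were examined by list, and the counts below stand beside 23.6% of all genes called in AOM/DSS against Control, 16.4% higher and 7.23% lower. No test compared a list with the rest. Of the other bile acid transporters, 2 of 11 tested rose with AOM/DSS and 1 fell. Abcc2 (MRP2, an apical exporter of conjugates) went from 0.634 ± 0.493 FPKM in Control to 11.2 ± 5.61 FPKM in AOM/DSS mice (SD over 5 mice), a log2 change of 2.81 (limma, adjusted P = 2.70e-04). Abcc4 (MRP4), an exporter of bile acids and cyclic nucleotides, rose by 0.77 (adjusted P = 0.0155), and Abcg2 (BCRP), an apical exporter of sulfated steroids, fell (-1.147, adjusted P = 0.00305). Abcc2 was at 0.318 to 0.726 FPKM with PZH alone and at 0.800 to 15.9 FPKM with AOM/DSS + PZH, a range that overlapped both Control and AOM/DSS mice.

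Of the receptor partners and other sterol receptors, 4 of 17 fell and 1 rose with AOM/DSS. Klb, the β-klotho co-receptor of FGF15, changed by -1.25 (adjusted P = 0.00147), the nuclear receptor Nr5a2 (LRH-1) by -1.08 (adjusted P = 0.0306), Ppara by -0.73 (adjusted P = 0.00276) and the epithelial regulator Hnf4a by -0.71 (adjusted P = 0.0109, all limma). S1pr2, a receptor for conjugated bile acids named after its value was seen, rose by 0.69 (adjusted P = 0.00965). Rxra, the partner of FXR and VDR, was at 15.2 to 22.6 FPKM in all 20 mice. It was not called in AOM/DSS against Control (-0.24, adjusted P = 0.137) and was called lower over both arms (-0.21, adjusted P = 0.0457). Nr1i2 (PXR) was called higher in AOM/DSS + PZH than in Control mice (2.303, adjusted P = 0.0356), but its values within a group ran from 0.0241 to 24.0 FPKM in PZH mice, a swing like that of Epcam.

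Vitamin D genes gave 1 call among 7 tested, and that gene was under 0.5 FPKM in every Control mouse, so that it entered the test only through the AOM/DSS mice. It was Cubn (cubilin, which takes up vitamin D-binding protein), higher by 1.46 (limma, adjusted P = 3.79e-04) and at 0.0511 ± 0.0180 FPKM in Control against 2.00 ± 0.965 FPKM in AOM/DSS mice (SD over 5 mice). The list's median log2 fold change was -0.01, against 0.09 for all genes. The calcium-binding target S100g was at 18.2 ± 15.9 FPKM in Control mice and 4.85 ± 2.67 FPKM with AOM/DSS. It was not called (-1.32, adjusted P = 0.183), while it was called lower over both arms (-1.48, adjusted P = 0.0398). Trpv6, on the same list, differed in the other direction and was not called either (0.71, limma, adjusted P = 0.296). Cyp24a1, a classical target of the vitamin D receptor, was listed at 0 in all Control, AOM/DSS and AOM/DSS + PZH mice and reached 0.0494 FPKM in 1 PZH mouse.

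Genes that metabolize bile acids and foreign compounds gave 6 of 13 lower and 1 higher (Cyp2b10, 1.11), with a list median of -0.76 against 0.09 for all genes. Cyp2c55 went from 317 ± 65.2 FPKM in Control mice to 34.5 ± 33.9 FPKM with AOM/DSS (-4.25, limma, adjusted P = 0.00878), and was at 165 ± 63.2 FPKM in PZH and 71.5 ± 47.2 FPKM in AOM/DSS + PZH mice (SD, n = 5 each). The sulfotransferase Sult1a1 changed by -2.69 (adjusted P = 1.15e-04), Ugt1a1 by -1.46 and Ugt1a7c by -1.150. The Ugt1a genes share their last exons, so the split of fragments between them is uncertain. Sult1a1 was lower also in AOM/DSS + PZH than in PZH (-2.04, adjusted P = 0.0283) and than in Control mice (-2.03, adjusted P = 0.0361), and Cyp2c55 than in Control mice (-2.31, adjusted P = 0.0130).

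Genes of bile acid synthesis and conjugation gave 2 calls among 10 tested, Cyp27a1 (sterol 27-hydroxylase) higher by 0.72 (limma, adjusted P = 0.0400) and Acot8 lower (-0.48, adjusted P = 0.00214). Over both arms, 5 of 11 transporters, 7 of 18 receptors, 6 of 11 synthesis genes, 3 of 7 vitamin D genes and 9 of 13 metabolizing genes were called in either direction, against 30.3% of all genes. None of these lists had a called gene between PZH and Control or between AOM/DSS + PZH and AOM/DSS.

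**Figure D5:**
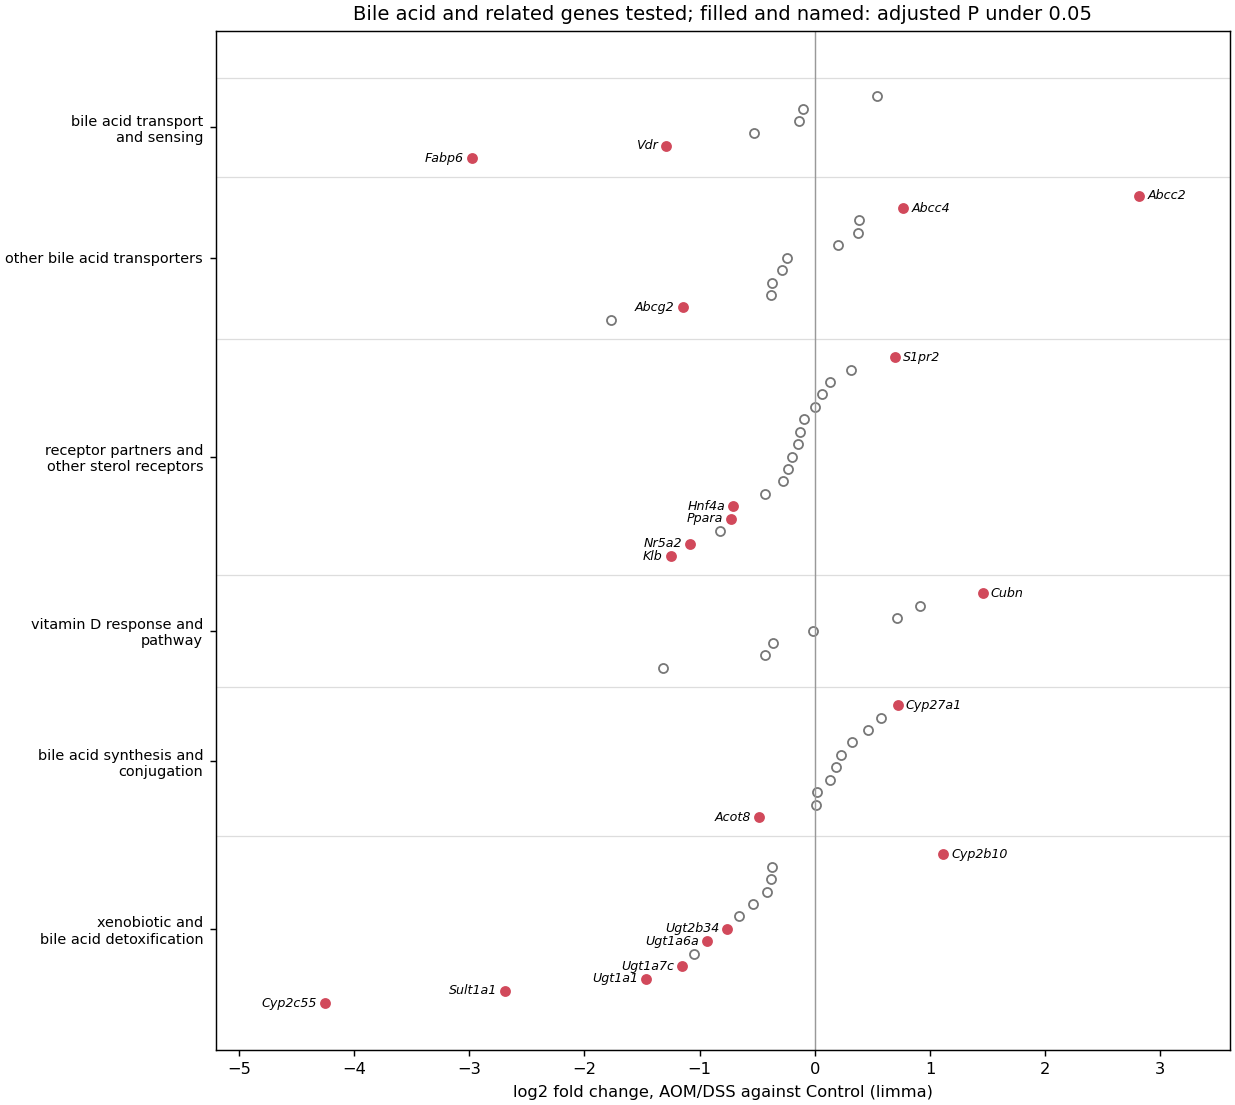
log2 fold change of AOM/DSS against Control (limma) for the members tested and the genes of 5 lists around them, 1 point per gene, filled and named where the adjusted P is under 0.05. Fabp6 and Vdr are the called members, and Cyp2c55 (-4.25) and Abcc2 (2.81) mark the lowest and highest called genes.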

How the data were processed

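Colon RNA of 20 mice was sequenced after rRNA depletion per the labels, while the methods add poly(A) selection. The authors filtered reads with NGSQC, aligned them to mm10 with HISAT2 and assembled and quantified transcripts with StringTie. The deposited values were FPKM for 118434 transcripts, 96182 of them with Ensembl identifiers, and the submitters' processing notes name limma. Counts were not analysed here. The 96032 transcripts that GENCODE M21 (GRCm38) holds were summed per gene as FPKM.

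log2(FPKM + 1) values were compared with limma 3.58.1 (R 4.3.3, intensity trend, no covariates), using the 10 mice of the groups compared and genes with at least 0.5 FPKM in at least 5 mice. Fits across both arms and of the interaction used all 20. For shares and single genes, exact permutation tests (two-sided, 252 arrangements) were used. Fragments behind a value were estimated from the step that 1 fragment makes in genes with a single transcript, a rough scale. In simulated AOM/DSS against Control data (15812 genes), limma found 74.2% of genes changed by 1 and 94.6% of those changed by 2 on the log2 scale. It also called 10 unchanged genes. The noise was drawn as normal and changes were given only to genes above a minimum mean level, so these rates do not cover low genes. The alternatives were a pseudocount of 0.1, no filter, a filter of 1 FPKM, median-of-ratios scaling, all mice in one model, sample weights, 1 transcript per gene, Control mice 17 and 50 left out (chosen after seeing the data) and each mouse left out. No batch is named, and no 2 mice had identical values. The mice of a group were separate animals.

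The members and the 17 lists around them were chosen with earlier results of these data known. All members were named. From each of the 5 bile acid lists, up to 4 called genes with the largest AOM/DSS change and any gene called in another comparison of 2 groups were named. Some genes outside this rule were named as well, among them S100g, Trpv6, Cyp24a1 and Rxra. The 3 genes most like each called member were taken by root mean square difference. Promoter windows (250 bases before to 50 after the start) came from RefSeq.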

Additional observations from a re-analysis of the deposited data

Results flagged for a closer look

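In 33 groups of 5 mice with at least 2 values above 0, 1 mouse stood apart from the other 4 by Dixon's test in 4, where chance flags about 1 in 20 groups, or 1.65. Fabp6 was at 58.1 FPKM in PZH mouse 8 and at 2.38 to 14.6 in the other PZH mice. Slc10a2 was at 2.37 FPKM in PZH mouse 46 and at 0.40 to 0.80 in the others. Abcc3 was at 28.9 FPKM in AOM/DSS + PZH mouse 35 and at 46.7 to 53.02 in the others of its group. Vdr was at 73.0 FPKM in Control mouse 37 and at 89.4 to 94.4 in the other Control mice. Nr0b2 at 0.108 FPKM in Control mouse 17, and Fgf15 at 0.0351 FPKM in PZH mouse 27 and 0.1002 FPKM in AOM/DSS + PZH mouse 36, were the only values of their groups not listed at 0. With 4 values at 0 the test marks any other value, so these 3 are not counted above.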

How the results depend on the processing

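No paired analysis was possible because no mouse number is shared between groups. Of 317 fold changes of members recomputed for AOM/DSS against Control, PZH against Control and AOM/DSS + PZH against AOM/DSS, 309 kept their direction and side of the threshold, 2 were newly called and 6 changed sign. Fabp6 and Vdr were called in AOM/DSS against Control under all 8 other settings (-3.81 to -2.66 and -1.40 to -1.26) and without each mouse (-3.36 to -2.50 and -1.505 to -1.13, 10 of 10 each). Abcc3 was newly called there without AOM/DSS mouse 33 (-0.68) and Slc10a2 without Control mice 17 and 50 (1.12). The changed signs were all of uncalled values: Slc51b in AOM/DSS against Control without AOM/DSS mouse 44 (0.15) or 52 (0.064; range without single mice -0.40 to 0.15), Nr1h4 in the same comparison without Control mouse 17 (0.026; range -0.26 to 0.026), and Nr1h4 in AOM/DSS + PZH against AOM/DSS without AOM/DSS + PZH mouse 15 (-0.0099; range -0.0099 to 0.41) or with 1 transcript per gene (-0.058), and Slc10a2 in PZH against Control without Control mice 17 and 50 (0.24). With all 20 mice in one model, 1 member, Fabp6, was called in AOM/DSS + PZH against Control (-2.27, adjusted P = 0.0469) and 1503 genes in place of 378. Leaving out single mice gave 0 to 1 called members for the average effect of PZH, the 1 being Slc51b. The causes were not tested. Counts of called genes moved with settings and left-out mice, from 2516 to 4103 for AOM/DSS against Control (3739 as reported), 0 to 808 for AOM/DSS + PZH against AOM/DSS (1), 54 to 1002 for AOM/DSS + PZH against PZH (378), 29 to 1503 for AOM/DSS + PZH against Control (378), 0 to 476 for the interaction (2) and 0 to 863 for the average effect of PZH (0). Slc51a, Nr0b2 and Fgf15 lie where 1 to 7 fragments decide a value.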
